A study of Homo sapiens with 9 samples.

Results

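The FOS, JUN and EGR transcription factors are a set of 10 genes, FOS, FOSB, FOSL1, FOSL2, JUN, JUNB, JUND, EGR1, EGR2 and EGR3, out of 26871 genes that were counted in every comparison of spinal cord organoids (SCOs). They were taken by gene name. The set was chosen by measured values: the study had singled out EGR1, EGR2, EGR3, FOS, FOSB and JUNB for being higher with VPA and lower when Rapamycin was added, and FOSL1, FOSL2, JUN and JUND complete their families. The study also took those 6 for being back at the starting level with Rapamycin, so that all 3 comparisons bear on the choice of these 6 genes. Their values are therefore given below as a description with no test. For FOSL1, FOSL2, JUN and JUND, which were not singled out, tests are given for VPA+Rapamycin against vehicle, which shares its libraries with the other comparisons. The study also reported a similar course for other members of the FOS and JUN network, which its text does not name. These tests may therefore not be free of the study's choice.

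FOS and JUN proteins pair through a leucine zipper to form AP-1, a dimer that binds DNA. JUN proteins can pair with each other, whereas FOS proteins need a JUN partner, so the supply of each family matters for which dimers can form. The EGR proteins are zinc finger factors that bind GC-rich elements. Most of these genes are immediate early genes: they are transcribed within minutes of a growth factor, a stress or a depolarization, without new protein synthesis, through MAP kinase signals that reach serum response factor (SRF) and CREB at their promoters. JUND and FOSL2 are known for steadier expression.

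SCOs are 3D cultures that model the developing spinal cord. They were grown from the human induced pluripotent stem cell line WTC, which carries a reporter in the SOX10 locus, and messenger RNA was sequenced in bulk. There were 9 libraries, 3 in each of 3 conditions: vehicle (FGF alone), VPA (FGF with valproic acid, which inhibits histone deacetylases) and VPA+Rapamycin (FGF and VPA with an inhibitor of mTOR), each labelled with 96 h of treatment and as wild type. For its VPA experiments the study gives more than one exposure time, not all equal to that of the labels. It also gives more than one VPA dose, so no dose is given here. For vehicle and VPA the study describes a pool of several SCOs from each clone, with a clone to each heatmap column. It refers to the same account for VPA+Rapamycin. Of its clones 2, C36 and C40, also carry small insertions or deletions in the other SOX10 allele. The labels do not say which library came from which clone, and p-values measure the spread between these libraries only.

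Library totals were 15290299 to 17417338 reads on genes, so that 3 counts correspond to between 0.170 and 0.198 CPM (reads relative to the library's size, scaled with TMM factors over all 9 libraries). Neural progenitor markers summed to 1919 to 2413 CPM, blood and macrophage markers to at most 1.28 CPM. The 8 mesenchymal markers summed to 150 to 317 CPM in vehicle, 577 to 734 in VPA and 257 to 383 in VPA+Rapamycin, most of it COL1A1 and COL1A2. Of these 8 markers 2 were called higher with VPA and 6 lower with Rapamycin added, and PRRX1 was at 0 in 3 libraries. Of the 8 neuron markers 6 were called lower with VPA, with sums of 1288 to 2190 CPM in vehicle, 1099 to 1183 in VPA and 1189 to 1238 in VPA+Rapamycin, and 2 of 7 tested were higher with Rapamycin added. Of 6 neural crest markers tested 1 was higher and 3 lower with VPA, and 2 were higher with Rapamycin added. These markers moved in the same comparisons as the 10 factors, and their part in the factors' levels was not tested. In bulk RNA, fewer cells of a type and less RNA per cell cannot be told apart. Vehicle replicates 1 and 3 lay furthest apart, with a chi-square per gene of 39.1. It was 17.9 between replicates 2 and 3 and 13.5 between replicates 1 and 2. Replicate 3 held 307 reads of the neural crest gene TFAP2B where the other vehicle libraries held 2 each. Results that rest on replicate 3 are given with and without it. FOSL1 with VPA and JUNB against vehicle are given without replicate 1 too.

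Promoter sequence was examined for 8 of the 10 genes, in windows from 250 bases before to 50 bases after each transcript start of RefSeq (GRCh38.p14). The stretches below are shown because they carry the letters through which immediate early genes are known to be controlled. JUND is shown as a member that stayed level, as FOSL2 also did. The printed stretches run 5′ to 3′ on the gene's strand and lie outside every annotated exon. Capitals mark the letters of 6 motifs searched on both strands. These are the CArG box, which SRF binds, the CRE, which CREB binds and which reads TGACGTCA, and its first letters alone, TGACG. An AP-1 site was searched as TGANTCA, an EGR site as GCGNGGGCG and a TATA box as TATAAA. A CRE always holds TGACG on both strands. FOS lies at chr14:75278628-75278773 (plus strand, ending 55 bases before the start), FOSB at chr19:45467796-45467994 (plus), JUNB at chr19:12791286-12791485 (plus), JUND at chr19:18281623-18281822 (minus), EGR1 at chr5:138465279-138465478 (plus) and EGR2, at the third of its 3 annotated starts, at chr10:62816367-62816566 (minus).
FOS: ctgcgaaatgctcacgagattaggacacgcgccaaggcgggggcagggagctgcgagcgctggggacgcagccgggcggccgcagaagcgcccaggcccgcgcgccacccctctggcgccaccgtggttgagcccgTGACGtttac
FOSB: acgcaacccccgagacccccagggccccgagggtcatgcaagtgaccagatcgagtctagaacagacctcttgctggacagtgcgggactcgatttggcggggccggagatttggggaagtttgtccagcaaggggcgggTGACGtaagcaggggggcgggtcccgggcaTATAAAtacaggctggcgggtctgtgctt
JUNB: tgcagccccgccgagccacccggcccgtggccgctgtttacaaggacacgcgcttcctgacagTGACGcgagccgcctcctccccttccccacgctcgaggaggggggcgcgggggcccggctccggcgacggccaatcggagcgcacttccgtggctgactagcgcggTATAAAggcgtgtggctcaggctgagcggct
JUND: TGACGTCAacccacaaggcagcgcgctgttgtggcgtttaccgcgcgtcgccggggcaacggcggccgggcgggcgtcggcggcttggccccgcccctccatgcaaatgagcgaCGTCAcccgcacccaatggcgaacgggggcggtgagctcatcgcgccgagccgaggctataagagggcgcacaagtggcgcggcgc
EGR1: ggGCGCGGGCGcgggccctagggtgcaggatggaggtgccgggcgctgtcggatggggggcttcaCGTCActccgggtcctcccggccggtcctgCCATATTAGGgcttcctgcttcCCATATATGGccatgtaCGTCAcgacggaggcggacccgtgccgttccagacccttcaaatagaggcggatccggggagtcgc
EGR2: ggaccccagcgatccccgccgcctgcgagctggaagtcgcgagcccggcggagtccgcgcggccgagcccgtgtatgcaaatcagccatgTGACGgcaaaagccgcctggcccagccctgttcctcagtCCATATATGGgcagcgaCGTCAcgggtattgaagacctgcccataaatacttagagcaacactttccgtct
EGR1 held 2 CArG boxes, at positions -105 to -96 and -83 to -74 from the start, and EGR2 held 1, at -71 to -62. A CArG box occurred in 1.29% of all 35116 promoter windows and in 2 of the 8 genes here. Sequence more than 250 bases before the start was not searched, so a gene without a match may hold one further upstream. The 250 bases before the JUN start, and 54 of those before FOS and 35 before FOSL2, lie inside exons annotated by GENCODE 29, so the JUN match lies in annotated exon sequence. The letters TGACG were found in all 8 genes and in 24.6% of all windows; of these genes, FOS, FOSB, FOSL2, JUND, EGR1 and EGR2 held it within 100 bases of the start, as did 11.7% of all windows. A TATA box was found in FOS, FOSB and JUNB, between positions -33 and -25, and in 11.5% of all windows. The full CRE was found in JUND alone of these genes, at positions -200 to -193, and in 1.85% of windows, and a TGANTCA in FOSL2 alone, 4 to 10 bases after its start, and in 7.71%. The EGR letters were found in EGR1 and EGR2 and in 9.43% of windows. In EGR2 they lie at its second start, outside the stretch shown. A gene was counted if any of its windows held the letters, and EGR2 has 3, whereas the percentages are per window. These are matches of letters, not sites shown to be bound.

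**Figure D1:**
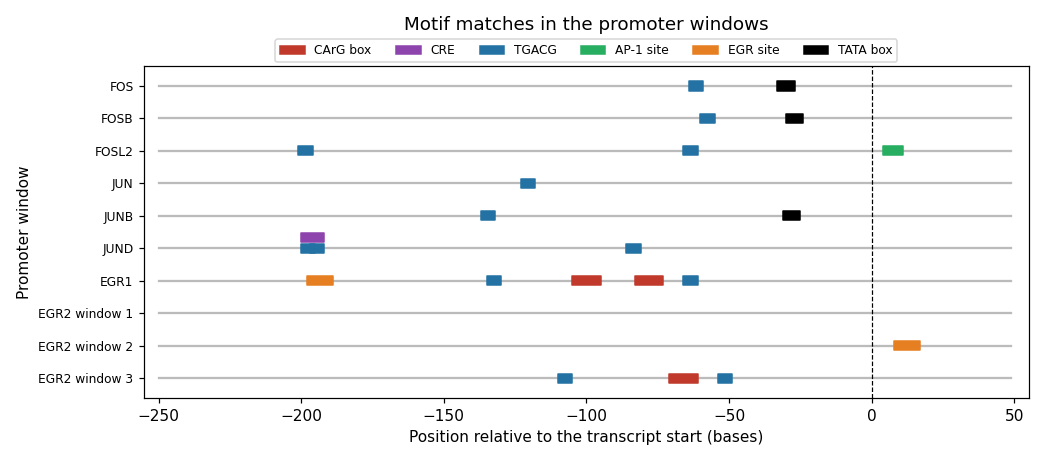
Motif matches (coloured blocks) in the promoter windows of 8 genes, by position in bases relative to the transcript start (dashed line); EGR2 has 3 starts. The CArG boxes sit in the EGR1 window and in the EGR2 window printed above, and TATAAA sits just before the start in FOS, FOSB and JUNB.

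The deposited counts are whole reads per gene. Gene coordinates are those of the deposited tables, which for all 10 genes are the same as in GENCODE 29 (GRCh38). The counts are compared between genes only after division by gene length, as CPM per kb. Across the set the 10 genes held 0.0503% to 0.0536% of all reads in the vehicle libraries, 0.207% to 0.282% in VPA and 0.0527% to 0.0587% in VPA+Rapamycin. The VPA libraries lay above all others. The difference was carried mainly by EGR1 and FOS, which made up 52.2% to 54.7% and 22.3% to 24.7% of the set's reads in VPA.

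In the FOS family, FOS (chromosome 14, 75278774 to 75282230, plus strand) is the prototype, with a short-lived transcript. It had 951, 755 and 741 counts in vehicle, 8308, 7483 and 12114 in VPA, and 621, 771 and 710 in VPA+Rapamycin. Every VPA library stood far above the rest, while the vehicle and VPA+Rapamycin libraries were close. FOS was 10.8-fold higher in VPA than in vehicle and 13.0-fold lower in VPA+Rapamycin than in VPA.

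FOSB (chromosome 19, 45467995 to 45475179, plus strand), whose truncated splice form is known for building up in neurons under repeated stimulation, was scarce without VPA. It had 32, 24 and 14 counts in vehicle, 283, 218 and 446 in VPA, and 14, 8 and 3 in VPA+Rapamycin. The VPA+Rapamycin libraries reached down to the level of 3 counts. The gene lies within the span of ERCC1, a DNA repair gene on the other strand which averaged 755 counts, and the library kit that the labels name is one that does not mark strand. The strand setting of the counting is not given in the sources used here. Without strand, reads of the genes at this locus cannot be told apart. ERCC1 itself had 39.7 ± 4.64, 50.8 ± 1.84 and 46.3 ± 5.57 CPM in vehicle, VPA and VPA+Rapamycin (SD, n = 3), a much flatter course than that of FOSB.

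FOSL1 and FOSL2 encode the FOS-related antigens, which lack the transactivation domain of FOS. FOSL1 had 33, 12 and 10 counts in vehicle, 42, 55 and 52 in VPA, and 23, 23 and 15 in VPA+Rapamycin. Its VPA libraries were the highest, but vehicle replicate 1 came close. The log2 difference of FOSL1 between VPA and vehicle was 1.37 (SE 0.44) with all libraries and 2.05 without vehicle replicate 1, and it fell below the threshold when any one of the other 5 libraries was left out. FOSL2 had 62, 67 and 28 counts in vehicle, 60, 53 and 66 in VPA, and 49, 74 and 38 in VPA+Rapamycin. Its libraries overlapped among all conditions.

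In the JUN family, JUN (chromosome 1, 58780788 to 58784327, minus strand) is the strong activator and is known to act on its own promoter. It had 1515, 1384 and 1631 counts in vehicle, 2739, 2775 and 3931 in VPA, and 977, 1315 and 1193 in VPA+Rapamycin. The 3 conditions did not overlap, with VPA highest and VPA+Rapamycin lowest.

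JUNB (chromosome 19, 12791496 to 12793315, plus strand) is a weaker activator that can hold back JUN. It had 206, 119 and 107 counts in vehicle, 619, 731 and 1109 in VPA, and 124, 113 and 99 in VPA+Rapamycin. Only the VPA libraries stood apart. JUNB lies within the span of HOOK2 on the other strand, a gene of microtubule-linked transport, which averaged 270 counts and had 15.5 ± 1.53, 16.5 ± 1.78 and 16.9 ± 1.74 CPM in vehicle, VPA and VPA+Rapamycin (SD, n = 3).

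JUND (chromosome 19, 18279760 to 18281622, minus strand) is the JUN protein of resting cells. It had 4326, 3743 and 4544 counts in vehicle, 3907, 3804 and 4620 in VPA, and 3314, 4147 and 3527 in VPA+Rapamycin. Vehicle and VPA overlapped widely.

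In the EGR family, EGR1 (chromosome 5, 138465490 to 138469315, plus strand) is the most widely inducible member. It had 2064, 1861 and 1303 counts in vehicle, 20369, 17938 and 25604 in VPA, and 3708, 3306 and 2856 in VPA+Rapamycin. The conditions did not overlap, and VPA+Rapamycin lay between the others rather than at the vehicle level.

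EGR2 (chromosome 10, 62811996 to 62919900, minus strand), a regulator of hindbrain patterning and of myelination by Schwann cells, had 13, 8 and 19 counts in vehicle, 490, 273 and 569 in VPA, and 14, 19 and 20 in VPA+Rapamycin. EGR3 (chromosome 8, 22687659 to 22693302, minus strand), known from muscle spindles and neurons, had 8, 16 and 5 counts in vehicle, 424, 234 and 575 in VPA, and 12, 21 and 30 in VPA+Rapamycin. Both genes had few reads in every library without VPA alone, and the VPA libraries stood far above them. EGR4, the remaining EGR gene, was counted at 0 in all 6 vehicle and VPA+Rapamycin libraries and at 1, 4 and 4 in VPA, too few to test.

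**Figure D2:**
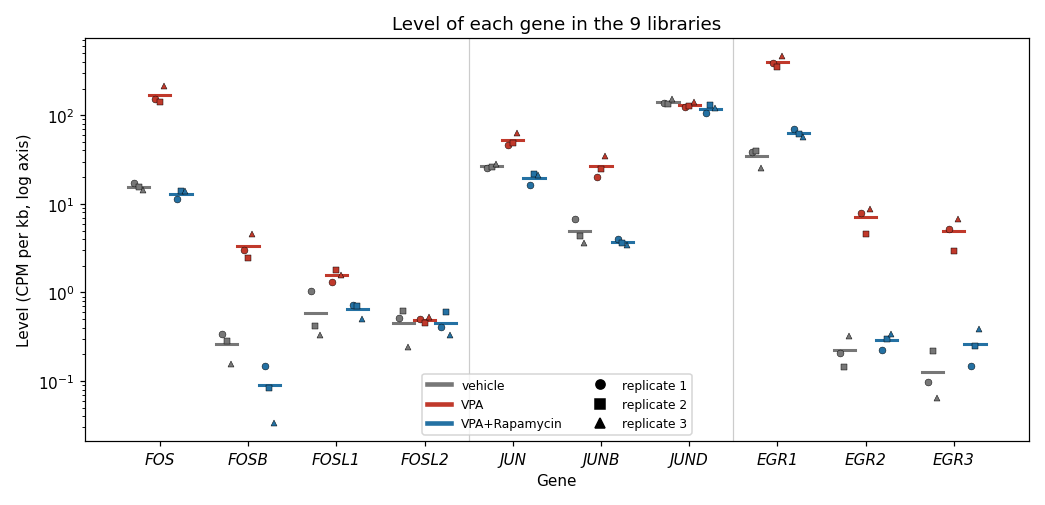
Level of each gene (CPM per kb of gene length, log axis) in the 9 libraries; colours give the condition, symbols the replicate number and lines the mean of 3 libraries. VPA stands above the other conditions in 8 genes, while FOSL2 and JUND stay level.

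By level per length, with the gene lengths of the deposited tables, the order of the genes differed between conditions. In vehicle JUND was highest at 140 ± 9.65 CPM per kb, followed by EGR1 at 34.6 ± 7.67, JUN at 26.5 ± 1.74 and FOS at 15.6 ± 1.62 (SD, n = 3 each). JUNB came next at 4.88 ± 1.61, and the other 5 genes were under 1 CPM per kb. EGR1 and JUN overlapped between libraries in vehicle, and so did each neighbouring pair among FOSL1, FOSL2, FOSB, EGR2 and EGR3. In VPA EGR1 led at 401 ± 56.7 CPM per kb and FOS followed at 169 ± 37.7, both above JUND at 131 ± 8.83. Of the 9 neighbouring pairs in VPA, EGR2 with EGR3 and EGR3 with FOSB overlapped. In VPA+Rapamycin the first 5 places were again JUND, EGR1, JUN, FOS and JUNB, with JUND at 118 ± 11.9 and EGR1 at 63.0 ± 6.62 CPM per kb, and no neighbours among these 5 overlapped. FOSB was last there, at 0.0893 ± 0.0581. The place of FOS in these orders depends on the length used. With the mean length of its coding transcripts in GENCODE 29, an alternative chosen after seeing the data, FOS stood at 39.1 ± 4.07 CPM per kb in vehicle, ahead of EGR1 and JUN, at 424 ± 94.4 in VPA, ahead of EGR1, and at 32.6 ± 3.52 in VPA+Rapamycin, ahead of JUN. The lengths of EGR1, JUN, JUNB and JUND were the same in both.

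The composition of each family was measured as the share of a gene in the family's summed level per length, library by library, which does not depend on the library scaling. In vehicle FOS made up 92.5% ± 2.48 of the FOS family, against 96.9% ± 0.0719 with VPA and 91.6% ± 2.19 with Rapamycin added (SD, n = 3). The FOS family was thus FOS almost alone in all 9 libraries, and FOSB did not exceed 2.08% of it in any. FOSL1 took 3.36%, 0.925% and 4.59% and FOSL2 2.66%, 0.289% and 3.14% on average, in the order vehicle, VPA and VPA+Rapamycin. Their shares were smallest where FOS was highest.

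The JUN family was the one whose make-up moved most. JUND held 81.1% to 82.4% of it in vehicle, 59.0% to 65.3% in VPA and 82.9% to 83.8% in VPA+Rapamycin. JUN held 15.5% ± 0.466, 24.9% ± 1.30 and 13.9% ± 0.877, and JUNB 2.86% ± 1.00, 12.5% ± 1.96 and 2.64% ± 0.492 in the same order (SD, n = 3). JUN and JUNB thus took up in VPA what JUND gave way in share, while the level of JUND itself overlapped between vehicle and VPA. In the EGR family EGR1 held 98.9% ± 0.364, 97.1% ± 0.673 and 99.1% ± 0.366. EGR2 held 0.705% of the family in vehicle and 1.69% in VPA, and EGR3 0.348% and 1.18%.

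Between VPA+Rapamycin and vehicle, JUND held 1.78 percentage points more of the JUN family and JUN differed by -1.55 points, each without overlap of libraries. The other 8 shares overlapped. These shares and the family ratios rest on genes that were chosen for their levels and are given without a test.

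**Figure D3:**
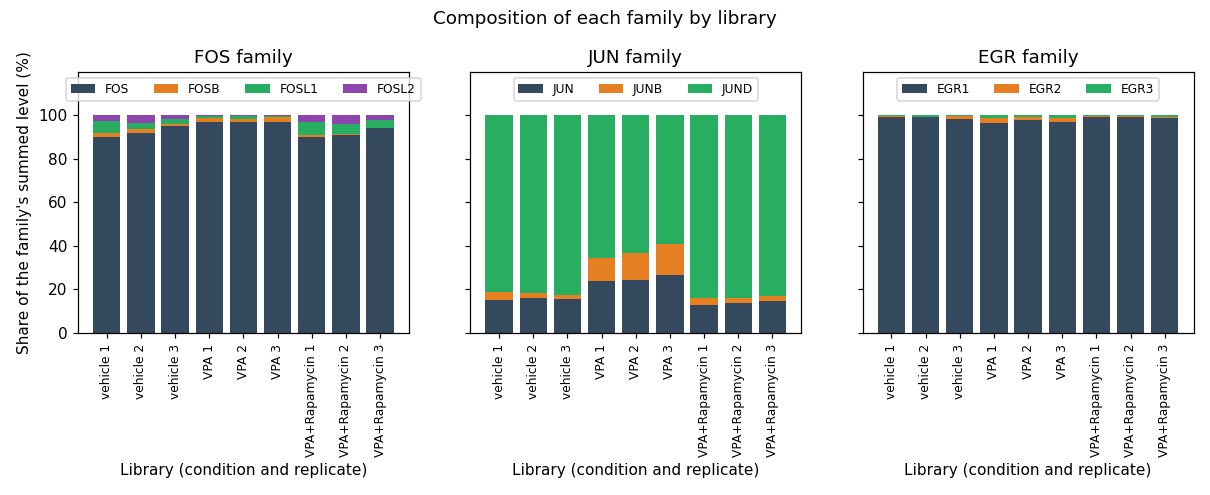
Share of each gene in its family's summed level per length (percent) in each of the 9 libraries. JUN and JUNB take a larger part of the JUN family in the 3 VPA libraries, while FOS and EGR1 fill their families in every library.

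The balance between families moved as well. The ratio of the FOS family to the JUN family, in summed level per length, was 0.114, 0.103 and 0.0813 in vehicle, 0.824, 0.740 and 0.919 in VPA, and 0.1005, 0.0985 and 0.102 in VPA+Rapamycin. With the GENCODE 29 lengths the same ratio was 0.273, 0.248 and 0.199 in vehicle, 2.04, 1.83 and 2.28 in VPA, and from 0.236 to 0.248 in VPA+Rapamycin. The VPA libraries stood far above the others with either length, and whether FOS family transcripts outnumbered those of the JUN family in VPA depended on the length. The VPA+Rapamycin ratios fell inside the vehicle range, whose low end was vehicle replicate 3. Without that library every VPA+Rapamycin ratio lay below the remaining vehicle ratios with the deposited lengths. With the GENCODE 29 lengths the ranges still touched. The ratio of the EGR family to the JUN family was 0.232, 0.243 and 0.142 in vehicle, 2.09, 1.81 and 2.01 in VPA, and 0.560, 0.400 and 0.403 in VPA+Rapamycin. Here VPA+Rapamycin lay above vehicle in 3 of 3 libraries. The JUN family itself summed to 172 ± 10.6, 210 ± 25.2 and 142 ± 14.4 CPM per kb in vehicle, VPA and VPA+Rapamycin (SD, n = 3).

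Differences between conditions are given as log2 fold changes from edgeR's quasi-likelihood fit, and a gene is called where its p, adjusted over all tested genes, is 0.05 or less. For VPA against vehicle, 8 of the 10 genes were called higher and 0 lower, where 16.4% of all 17360 tested genes were called higher and 15.7% lower. In the same 8 genes every VPA library was above every vehicle library, as it was in 24.9% of all genes. This contrast chose the set, and nothing is read from these counts. The largest differences were those of EGR3 (log2 fold change 5.30, SE 0.41) and EGR2 (4.96, SE 0.33). FOSB (3.66, SE 0.32), EGR1 (3.53, SE 0.17) and FOS (3.43, SE 0.16) lay close together. JUNB (2.43, SE 0.25), FOSL1 and JUN (0.98, SE 0.13) differed less. FOSL2 had 0.10 (SE 0.34) and JUND -0.11 (SE 0.10), with 95% intervals from -0.64 to 0.85 and from -0.33 to 0.11.

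For VPA+Rapamycin against VPA, 8 genes were called lower and 0 higher, where 3.73% of all 17317 tested genes were called lower and 3.01% higher. The libraries of these 8 genes did not overlap, as in 13.2% of all genes. Here too the contrast chose the set. The median log2 fold change over the 10 genes was 2.93 with VPA and -2.75 with Rapamycin added, and over all tested genes -0.0030 and 0.0039.

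The order of Rapamycin sensitivity, by log2 fold change against VPA, was FOSB (-5.19, SE 0.33), EGR2 (-4.61, SE 0.26), EGR3 (-4.24, SE 0.30), FOS (-3.70, SE 0.13), JUNB (-2.84, SE 0.17), EGR1 (-2.67, SE 0.10), JUN (-1.41, SE 0.11), FOSL1 (-1.27, SE 0.34), JUND (-0.14, SE 0.08) and FOSL2 (-0.13, SE 0.28). As a description of the spread, neighbours were set side by side through the log2 ratio of the pair in each library. The widest gaps were those of EGR1 to JUN (-1.26, SE 0.22), FOSL1 to JUND (-1.10, SE 0.24) and FOS to JUNB (-0.88, SE 0.20), and the other 6 gaps were under 1.5 times their SE. After the values were seen, the genes were grouped at these gaps into 4 steps: FOSB, EGR2, EGR3 and FOS, then JUNB and EGR1, then JUN and FOSL1, then JUND and FOSL2. Within the first step the 95% intervals of FOSB (-5.89 to -4.49) and EGR2 (-5.15 to -4.07) did not reach that of FOS (-3.97 to -3.42).

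As a share of the VPA rise on the linear scale, (VPA minus VPA+Rapamycin) over (VPA minus vehicle), Rapamycin removed 92.2% for EGR1, 94.7% for FOSL1, 97.2% for EGR3, 99.0% for EGR2, 102% for FOS, 105% for JUNB, 106% for FOSB and 126% for JUN. Over the omission of each library in turn the share was 91.5% to 93.4% for EGR1, 101% to 102% for FOS and 120% to 133% for JUN, and 77.2% to 110% for FOSL1, whose range lies on both sides of 100%. A value above 100% means a level under that of vehicle. No library had Rapamycin without VPA, so an effect of Rapamycin on the level without VPA was not tested. By this measure the order is another one, with JUN first and EGR1 last. EGR1 kept 15.7% of its VPA level and JUN 37.6%.

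**Figure D4:**
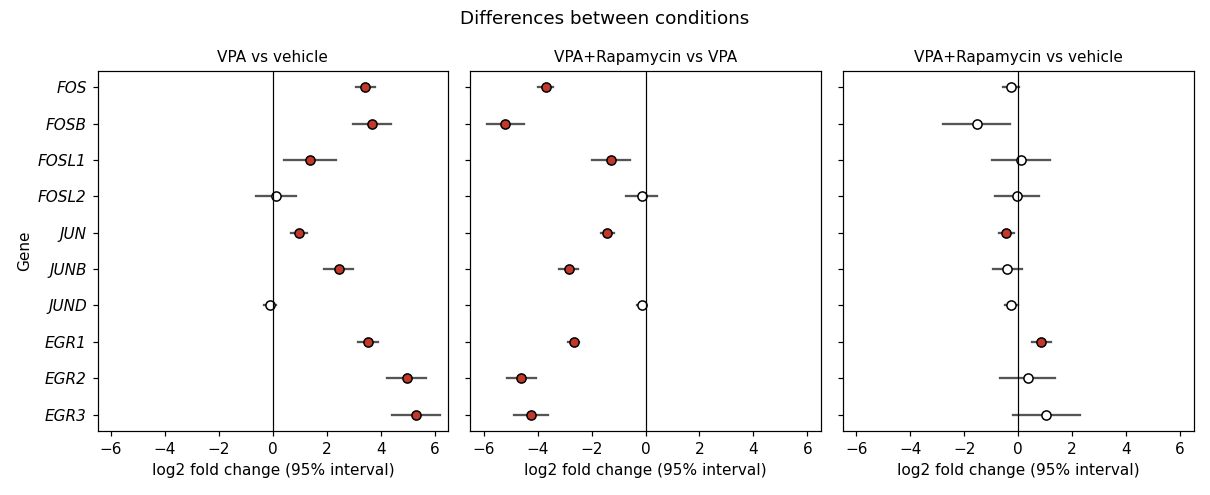
Log2 fold change of each gene with its 95% interval (line) in the 3 comparisons; filled points were called (adjusted p of 0.05 or less) and open points were not. The points for VPA lie to the right of 0 and those for Rapamycin to the left in 8 genes, and most intervals against vehicle include 0.

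VPA+Rapamycin against vehicle asks whether the level under both drugs differed from that without either. Of the 10 genes 1 was called higher and 1 lower, where 9.81% of all 17383 tested genes were called higher and 9.22% lower. Scaled by raw library totals in place of TMM, 2060 genes were called higher and 1255 lower over all genes, against 1705 and 1602. JUN, which was not singled out, was lower (log2 fold change -0.43, SE 0.13, adjusted p = 0.0387 from edgeR), in 3 of 3 libraries. The JUN call was lost without vehicle replicate 2 (-0.46, adjusted p = 0.0947 from edgeR) or any of VPA+Rapamycin replicates 1 (-0.31, adjusted p = 0.171), 2 (-0.50, adjusted p = 0.0723) and 3 (-0.48, adjusted p = 0.0834). JUND had -0.26 (SE 0.11, 95% interval -0.50 to -0.0093, adjusted p = 0.135 from edgeR). FOSL1 and FOSL2 had 0.11 (SE 0.49, interval -0.98 to 1.19) and -0.03 (SE 0.37, interval -0.85 to 0.78), with adjusted p = 0.907 and 0.962 from edgeR.

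Among the 6 genes chosen by the study, given as a description, EGR1 was 1.81-fold higher in VPA+Rapamycin than in vehicle (log2 fold change 0.86, SE 0.16), in 3 of 3 libraries. It is the gene counted as higher above, and no test of EGR1 is read from that count. Without vehicle replicate 3, its lowest library, the log2 fold change of EGR1 was 0.69. FOSB had -1.53 (SE 0.56, 95% interval -2.77 to -0.30), and -1.79 without vehicle replicate 3. EGR3 had 1.05 (SE 0.57, interval -0.20 to 2.30) and EGR2 0.35 (SE 0.47, interval -0.67 to 1.38). Their few reads leave room for a level over 2 times that of vehicle. For FOS the log2 fold change was -0.27 (SE 0.13, interval -0.56 to 0.01) and for JUNB -0.41 (SE 0.24, interval -0.94 to 0.13). That of JUNB was -0.11 without vehicle replicate 1. Every VPA+Rapamycin library was below every vehicle library in FOS, FOSB, JUN and JUND, as in 18.2% of all genes, and above in EGR1 alone, as in 20.3%.

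The libraries of a condition were compared by their deviation from the condition's mean log2 CPM. In VPA, replicate 3 was the highest library for 9 of the 10 genes, with FOSL1 the exception, whereas it was the highest for 34.9% of the 17229 genes with at least 10 counts on average. The spread in VPA was widest for EGR3, whose highest library had 2.26 times the level of the lowest, followed by EGR2 at 1.92 and FOSB at 1.88. It was narrowest for JUND at 1.12 and FOSL2 at 1.15. FOS spanned 1.49 and EGR1 1.31 times. For FOSB, FOS, JUNB, EGR2 and EGR3 the SD of log2 CPM in VPA was 0.307 to 0.601, above the counting error of 0.0152 to 0.0839 and above the median SD of 0.134 over all genes.

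In vehicle, replicate 3 was the lowest library for 7 of the 10 genes, FOS, FOSB, FOSL1, FOSL2, JUNB, EGR1 and EGR3, and the highest for JUN, JUND and EGR2. Over the 17229 genes, vehicle replicate 1 was the highest for 39.3% and replicate 3 for 38.0%. How often each was the lowest over all genes was not counted, so nothing is read from the 7 of 10. In VPA+Rapamycin no library led: replicates 1 and 2 were each highest for 4 genes and replicate 3 for 2. FOSB had its widest spread there, 4.40 times between libraries on 14, 8 and 3 counts, with a counting error of 0.576 on the log2 scale beside an SD of 0.924. What the genes shared in VPA rests on replicate 3, since the lowest VPA library was replicate 1 for 4 genes and replicate 2 for 6. With 3 libraries a condition no correlation was computed within a condition.

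**Figure D5:**
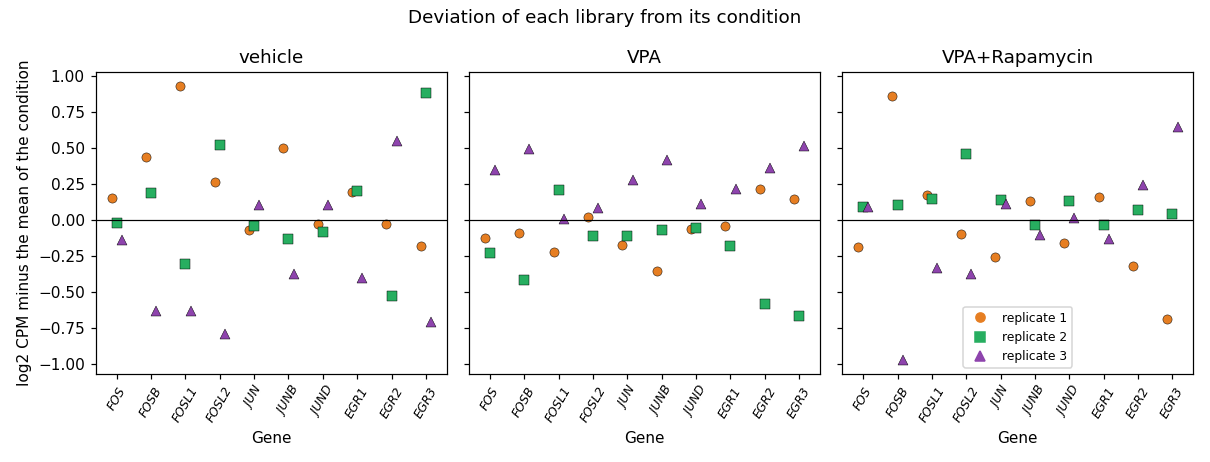
Deviation of each library's log2 CPM from the mean of its condition, for each gene, with colours and symbols for the replicate number. In VPA the points of replicate 3 lie above 0 for all 10 genes, while in VPA+Rapamycin no replicate leads.

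Over all 9 libraries, among 13386 genes outside the set with at least 50 counts on average, the 5 whose log2 CPM was most like that of FOS were CYR61 (Pearson r = 0.972), CRACR2A (0.968), BAG2 (0.957), TARS (0.956) and IER2 (0.946). These values mostly follow the 3 conditions. CYR61, an immediate early gene for a matrix protein, averaged 36.8, 128 and 28.0 CPM in vehicle, VPA and VPA+Rapamycin. For EGR1 the 5 were DISC1 (0.981), ASH2L (0.977), DAP (0.971), SEMA3E (0.968) and HMSD (0.968). DISC1, a scaffold protein of neurons, averaged 8.25 CPM in vehicle and 49.7 in VPA and, like EGR1, had a mean in VPA+Rapamycin between these. After removal of the condition means, a measure added after seeing the data, the correlation with FOS was -0.168 to 0.601 for its 5 genes and the correlation with EGR1 0.0526 to 0.717 for its own.

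Other genes of these pathways were counted in lists, here with genes outside the set and tests over all genes. Among 34 other immediate early genes 31 were tested, of which 9 were called higher and 7 lower with VPA, 13 lower and 1 higher with Rapamycin added, and, of 30 tested, 1 higher and 12 lower against vehicle. The median log2 fold change was 0.20, -0.36 and -0.39 in the 3 comparisons, beside -0.0030, 0.0039 and -0.00087 over all genes. CYR61 rose with VPA (1.78, SE 0.16, adjusted p = 3.00e-05 from edgeR) and fell with Rapamycin added (-2.18, SE 0.13, adjusted p = 5.60e-09). Some went the other way with VPA. IER5L fell with VPA (-1.22, SE 0.16, adjusted p = 0.000312 from edgeR), as did CCNL1, a cyclin of splicing (-1.08, SE 0.13, adjusted p = 0.000213). BTG2, an antiproliferative gene, fell with Rapamycin (-1.02, SE 0.09, adjusted p = 2.15e-06 from edgeR). It averaged 98.4, 127 and 62.5 CPM in vehicle, VPA and VPA+Rapamycin, a course like that of JUN. Against vehicle KLF10, a TGF-beta inducible repressor, was higher in VPA+Rapamycin (0.99, SE 0.13, adjusted p = 0.00104 from edgeR) and PLK2 (-1.11, SE 0.15, adjusted p = 0.00116) and IER5L (-1.19, SE 0.17, adjusted p = 0.00137) lower.

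Of the factors that act at immediate early promoters, 11 of 12 were tested, with 2 called higher and 3 lower with VPA and 1 lower with Rapamycin added. SRF fell with Rapamycin (-0.46, SE 0.09, adjusted p = 0.00516 from edgeR), from 74.0 CPM in VPA to 53.7, beside 53.8 in vehicle. ELK4, a partner of SRF, fell with VPA (-1.44, SE 0.15, adjusted p = 9.02e-05 from edgeR) and ELK3, another partner, rose (0.93, SE 0.16, adjusted p = 0.00171). Both differences held against vehicle with Rapamycin added (ELK4 -1.37, adjusted p = 0.00048, and ELK3 0.68, adjusted p = 0.0126, from edgeR). CREBBP, the acetyltransferase that CREB recruits, fell with VPA (-0.55, SE 0.10, adjusted p = 0.00194 from edgeR) and was lower against vehicle with Rapamycin added too (-0.43, SE 0.11, adjusted p = 0.021).

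Of 18 MAP kinases and kinases around them tested 1 was called higher and 5 lower with VPA, 0 with Rapamycin added and 2 lower against vehicle; BRAF (-0.53, SE 0.12, adjusted p = 0.00818 from edgeR) and RPS6KA5, the histone kinase MSK1 (-0.63, SE 0.21, adjusted p = 0.0371), fell with VPA. Against vehicle RPS6KA4 (-0.73, SE 0.20, adjusted p = 0.0254 from edgeR) was lower in VPA+Rapamycin. The dual specificity phosphatases switch MAP kinases off, and some are themselves immediate early genes. Of 9 tested 1 was higher and 3 lower with VPA, 3 lower with Rapamycin added and 4 lower against vehicle. DUSP5 rose with VPA (2.43, SE 0.32, adjusted p = 0.000345 from edgeR) and fell with Rapamycin added (-1.50, SE 0.21, adjusted p = 0.00026). DUSP8 (-0.76, SE 0.13, adjusted p = 0.00182 from edgeR) and DUSP4 (-0.51, SE 0.13, adjusted p = 0.0127) fell with VPA. DUSP1 (-0.96, SE 0.10, adjusted p = 2.36e-05 from edgeR) and DUSP16 (-0.46, SE 0.09, adjusted p = 0.00348) fell with Rapamycin. Against vehicle DUSP8 (-0.75), DUSP1 (-0.76) and DUSP6 (-0.67) were lower in VPA+Rapamycin, with adjusted p from 0.00415 to 0.01 (edgeR).

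Of the 15 relatives that can pair with FOS or JUN proteins, 13 were tested, with 4 higher and 3 lower with VPA, 2 lower with Rapamycin added, and 2 higher and 2 lower against vehicle. BATF3, which pairs with JUN proteins, rose with VPA (3.59, SE 0.45, adjusted p = 0.000253 from edgeR) and fell with Rapamycin added (-1.05, SE 0.29, adjusted p = 0.0349), staying above vehicle (2.54, SE 0.53, adjusted p = 0.00897). MAFA rose with VPA (1.79, SE 0.45, adjusted p = 0.0112 from edgeR) and was higher than vehicle with Rapamycin added (1.69, SE 0.40, adjusted p = 0.0156), and ATF7 fell with VPA (-0.53, SE 0.12, adjusted p = 0.00811). CREB5 fell with Rapamycin (-0.51, SE 0.10, adjusted p = 0.00506 from edgeR) and was lower against vehicle (-0.62, SE 0.15, adjusted p = 0.0176).

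NAB1 and NAB2 are corepressors that bind EGR proteins, and NAB2 is itself known to be induced by EGR1. Neither passed in any comparison. NAB2 had 1011, 610 and 506 counts in vehicle, 631, 641 and 784 in VPA, and 541, 755 and 640 in VPA+Rapamycin, a log2 fold change with VPA of -0.12 (SE 0.20, adjusted p = 0.681 from edgeR) beside the 3.53 of EGR1. NAB1 had 0.27 (SE 0.13, adjusted p = 0.153 from edgeR) with VPA and 0.40 (SE 0.14, adjusted p = 0.0651) against vehicle with Rapamycin added.

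Genes known as targets of these factors moved in both directions. Of 13 EGR targets 5 were higher and 1 lower with VPA, 2 lower with Rapamycin added, and 2 higher and 1 lower against vehicle. THBS1, a matrix glycoprotein, rose with VPA (2.04, SE 0.15, adjusted p = 9.80e-06 from edgeR), fell with Rapamycin added (-0.92, SE 0.16, adjusted p = 0.00199) and stayed above vehicle (1.12, SE 0.22, adjusted p = 0.00652). ARC, a neuronal immediate early gene, fell with Rapamycin (-1.67, SE 0.21, adjusted p = 9.86e-05 from edgeR). GDF15, a stress cytokine, fell with VPA (-1.61, SE 0.29, adjusted p = 0.00191 from edgeR) and was lower against vehicle with Rapamycin added (-2.19, SE 0.36, adjusted p = 0.00292). Of 20 AP-1 targets 13 were tested, with 3 higher and 3 lower with VPA, 1 lower with Rapamycin added, and 2 higher and 2 lower against vehicle. CCND1, cyclin D1, fell with VPA (-1.11, SE 0.11, adjusted p = 6.30e-05 from edgeR) and was lower against vehicle with Rapamycin added (-0.84, SE 0.13, adjusted p = 0.00182). VIM, the vimentin of intermediate filaments, fell with VPA (-0.40, SE 0.09, adjusted p = 0.00786 from edgeR). TGFB1, on both target lists, rose with VPA (1.01, SE 0.19, adjusted p = 0.00276 from edgeR) and was higher against vehicle with Rapamycin added (0.85, SE 0.20, adjusted p = 0.0143). PLAUR, the urokinase receptor, fell with Rapamycin (-0.80, SE 0.23, adjusted p = 0.0442 from edgeR), and TIMP1, a protease inhibitor, was lower against vehicle (-0.65, SE 0.15, adjusted p = 0.0125). The shares of these lists that were called with VPA stood beside 16.4% higher and 15.7% lower of all genes, and with Rapamycin added beside 3.73% lower.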

How the data were processed

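Messenger RNA of human SCOs was measured in 9 libraries, 3 each for vehicle, VPA and VPA+Rapamycin. Per the submitters' processing notes, HISAT2 2.0.5 and featureCounts 1.5.0-p3 were used. The genome build is not given in the sources used here, but the gene IDs and coordinates of all 10 members equal those of GENCODE 29 (GRCh38). The authors deposited raw counts of reads per gene in 1 table for each pair of conditions, with at least 2 reads in every row, and FPKM, which are those counts divided by gene length and a constant per library. A further 18 per-sample columns of size-factor scaled counts, the authors' group means and their DESeq2 fold changes and p-values were not used here.

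Within each table the counts were tested with edgeR 4.0.16 in R 4.3.3 (TMM, filterByExpr at its defaults, quasi-likelihood F test, no block, Benjamini and Hochberg's adjustment over all genes, threshold 0.05). The fit was also run on simulated counts with the same spread set for all genes and libraries. That setting is simpler than these data, so it does not vouch for the calls made here. SEs come from the estimate and its F statistic. Intervals are at 95%. Levels used TMM factors over 9 libraries and log2 values a prior count of 1. Shares and family ratios got no printed test, since 3 against 3 libraries cannot give an exact permutation p under 0.1. Intervals of fold changes include the spread between libraries, and the floor of 3 counts covers counting error only. DESeq2 1.42.0 was an alternative, with RLE size factors, no filter on low counts, all 9 libraries in one fit, the replicate number as a block and the omission of each library. The members, gene lists and tests were chosen with earlier results of these data known. Genes named are all members, EGR4, NAB1 and NAB2, for each list up to 3 called genes with the smallest p in each comparison, the 5 genes most like FOS and EGR1, genes that overlap a member with more than 10% of its counts, and a few markers. One gene that this rule names is not reported here. COL1A1, COL1A2 and TFAP2B were named after their values were seen. Promoters come from RefSeq (GRCh38.p14), where 8 of 10 members matched by symbol.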

Additional observations from a re-analysis of the deposited data

How the results depend on the processing

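The members called higher with VPA and lower with Rapamycin added numbered 8 with edgeR, DESeq2, RLE size factors and no filter on low counts, and 7 or 8 when each library was left out, FOSL1 being the gene lost; with all 9 libraries in one fit 7 were lower with Rapamycin, again without FOSL1. EGR1 stayed above vehicle under VPA+Rapamycin in all 11 alternatives, with a log2 fold change from 0.69 to 0.95. The count of members called lower there was 1, and 2 with all 9 libraries in one fit, where FOSB (-1.53) was counted too. It was 0 to 2 when each library was left out. Calls of the genes chosen by the study are a description here as well, with no test read from them. FOSL2 (main value -0.03) ranged from -0.33 to 0.24 and FOSL1 (0.11) from -0.18 to 0.77 over the alternatives, so their signs are not set. Same-numbered libraries deviated together with a mean correlation of 0.013, 0.036 and 0.110 in the 3 comparisons and not in every pair over 0.1, so the numbers were not taken as pairs. The sample descriptions share a prefix across conditions by the same numbers, and whether it marks a clone is not given in the sources used here. With the replicate block 2 members were counted as lower against vehicle, FOSB (-1.61) being the one added, and FOSL2 stood at 0.0029. The block changed no other call of a member. Over all genes, calls with Rapamycin added fell to 44 higher and 69 lower with all 9 libraries in one fit (main 522 and 646). When each library was left out they ranged from 175 to 533 higher and 297 to 670 lower, with VPA from 1791 to 3480 higher and 1599 to 3230 lower, and against vehicle from 761 to 2204 higher and 534 to 2110 lower, with the fewest without VPA replicate 2, VPA replicate 2 and VPA+Rapamycin replicate 1, respectively; the cause was not tested.

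The order of Rapamycin sensitivity kept all 10 members in their step under RLE size factors, raw totals, all 9 libraries, the block and each omission, with exchanges only between JUN and FOSL1 and between JUND and FOSL2. RLE size factors and raw totals move all genes by nearly the same amount, so they could hardly alter the order. The steps themselves were set on these libraries after the values were seen. FPKM gave the same shares as counts per length, by construction. With the mean GENCODE 29 transcript length, chosen after seeing the data, FOS held 95.6%, 97.9% and 95.3% of its family and EGR1 98.4%, 95.6% and 98.6% in vehicle, VPA and VPA+Rapamycin, and the JUN family's shares were the same. With these lengths the ratio of the FOS to the JUN family averaged 0.2399, 2.05 and 0.241 (0.0992, 0.828 and 0.1004 with the deposited lengths), and 6 members in VPA and 5 in VPA+Rapamycin kept their place in the order of levels. In the 100 bases before the start, 0 members held the CRE, 0 the AP-1 site and 0 the EGR site. The comparison of protein sequences was not run. Depth limits FOSB, EGR2, EGR3 and FOSL1, which had from 3 to 33 counts a library in vehicle and VPA+Rapamycin.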
